A study of Homo sapiens with 2 samples.

Results

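The snoRNA host genes were taken as every row of the feature files whose symbol starts with SNHG, together with GAS5, ZFAS1 and EPB41L4A-AS1, with at least 1 UMI in either library. Of 36601 genes listed, 31 matched and 30 of those had a UMI, and the remaining one, SNHG28, had none. Droplet-based RNA-Seq of single cells was available for LNCaP_C4-2B and for LNCaP_FGC, with 1 library and 1850 cells each. LNCaP_FGC is an established human prostate carcinoma line that depends on androgen, and LNCaP_C4-2B is a castration-resistant strain derived from LNCaP by passage as a xenograft. Both were grown untreated in RPMI medium with serum and antibiotics. The study profiled single cells to look at heterogeneity within LNCaP_FGC.

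A snoRNA host gene is transcribed and spliced like other RNA polymerase II genes, but one or more of its introns holds a small nucleolar RNA. After splicing, the intron is trimmed to the snoRNA, which then guides methylation (box C/D, named SNORD) or pseudouridylation (box H/ACA, named SNORA) of ribosomal RNA, while related scaRNAs guide modification of spliceosomal RNA. The spliced exons of SNHG genes mostly encode no conserved protein, and many of these RNAs are translated briefly and removed by nonsense-mediated decay. Many hosts start in a run of pyrimidines, the 5′ TOP signature shared with ribosomal protein mRNAs, and GAS5 was named for its accumulation in cells whose growth has stopped. What was counted here is polyadenylated host RNA at its 3′ end, and spliced and unspliced forms were not told apart. The snoRNAs themselves lack a poly(A) tail and were not measured.

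In GENCODE release 44 on GRCh38 the 30 members lay on 15 chromosomes. Their longest annotated transcripts ranged from 311 bases in SNHG25 (chromosome 17, 64145937 to 64146476, plus strand) through 471 bases in SNHG9 (chromosome 16, 1964895 to 1965509, plus strand) and 564 bases in SNHG19 (chromosome 16, 2154792 to 2155405, minus strand) to 24124 bases in SNHG14 (chromosome 15, 24978583 to 25420336, plus strand). SNHG25 carries SNORD104 and SNORA50C, SNHG9 carries SNORA78 and SNHG19 carries SNORD60. SNHG14, a transcript of the imprinted Prader-Willi region, carries the SNORD115 and SNORD116 arrays. In 4 members, annotated exons overlapped on the same strand with those of a neighbor. SNHG3 shared 242 bases with RCC1, SNHG4 shared 626 bases with MATR3, SNHG14 shared 141 bases with SNRPN and SNHG20 shared 460 bases with SEC14L1, so the counts of these 4 are less certain than those of the other 26.

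The start sites are shown because a pyrimidine run at the first transcribed base is the 5′ TOP signature named above. A window of 30 bases, 15 before and 15 from the first transcribed base, was read from the RefSeq promoter table (GRCh38.p14), which held 26 of the 30 members. A run of a C followed by at least 4 more pyrimidines (C or T) occurred in 17 of these 26 windows (65.4%), in 71 of 86 windows of ribosomal protein genes (82.6%) and in 39.0% of all 35116 windows. On the opposite strand the run occurred in 26.9%, 25.6% and 36.9%. The run was accepted anywhere in the window, so these are not shares of genes that start in such a run. In SNHG29 it began 15 bases before the first transcribed base, and in SNHG11 it began 9 bases after it. In the first 4 lines below, the run, in capitals, begins exactly at the first transcribed base, as it does in SNHG4, which is not printed. In the last 3 lines no run was found, but the GAS5 and SNHG3 windows lie outside those genes as annotated in GENCODE. There GAS5 starts at 173868882 (minus strand) and SNHG3 at 28505980 (plus strand). For GAS5 and SNHG3 the windows therefore do not show the start sites that GENCODE gives. The same holds for SNHG14, which is not printed but whose run is counted among the 17. Its window was chr15:24823593-24823622 (plus strand), and GENCODE starts that gene at 24978583. The windows are ZFAS1 at chr20:49278627-49278656 (plus strand), SNHG5 at chr6:85678719-85678748 (minus strand), SNHG32 at chr6:31834901-31834930 (plus strand), SNHG19 at chr16:2155344-2155373 (minus strand), SNHG12 at chr1:28581859-28581888 (minus strand), SNHG29 at chr17:16438972-16439001 (plus strand), GAS5 at chr1:173869031-173869060 (minus strand), SNHG1 at chr11:62855871-62855900 (minus strand) and SNHG3 at chr1:28505928-28505957 (plus strand).
ZFAS1: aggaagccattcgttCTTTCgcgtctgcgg
SNHG5: gctgcgcacttcggtCTTTTacgtcggcct
SNHG32: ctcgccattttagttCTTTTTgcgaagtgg
SNHG19: ctcgcccgcccctgtCTTTTCggggtcgag
SNHG12: tcgcggcttcagcgCCCTTTCTCCCCgccg
SNHG29: CCCCTCCTTTTgtgaggattgggatattcc
GAS5: tgccatcatgaattcagatgtgtttatttt
SNHG1: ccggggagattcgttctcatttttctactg
SNHG3: cctcagtgagtttctgattctctaactgcg
A match describes these letters only, and the windows depend on the start site that RefSeq assigns.

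Both libraries held a mean of 19000 UMIs per cell, set by the authors, for a library total of 35149989 UMIs (LNCaP_C4-2B) or 35150013 UMIs (LNCaP_FGC), and the number of cell barcodes shared between them was 0. Levels are given as CPM, the UMIs of a gene per 1000000 UMIs of the library. Each transcript is counted by its 3′ end, so levels are not scaled by length. With 1 UMI at 0.0284 CPM, 3 UMIs, taken as the floor, were 0.0853 CPM. Luminal prostate markers were present in both (7 markers, summed 4951 CPM in LNCaP_C4-2B and 2692 CPM in LNCaP_FGC, none at 0), and the markers of basal, fibroblast, immune, endothelial and erythroid cells summed to at most 5.06 CPM per type. With no replicate library and a different batch label for each, strain and batch cannot be told apart, no test was run, and every 95% interval covers counting error only. RNA set free from broken cells could not be measured, since neither library held a cell type that should lack these genes.

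The snoRNA host genes as a group were dominated by different members in the 2 lines. Their summed level was 4644 CPM in LNCaP_C4-2B and 7842 CPM in LNCaP_FGC, a ratio of 0.592 (95% interval 0.589 to 0.596). SNHG25 alone took 4.95% of member UMIs in LNCaP_C4-2B and 45.5% in LNCaP_FGC, and without it the sums were 4414 CPM and 4277 CPM, a ratio of 1.03 (1.02 to 1.04). SNHG29 held the largest share in LNCaP_C4-2B, 34.4% of member UMIs, against 8.12% in LNCaP_FGC.

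By CPM, 4 of the 29 members with at least 10 UMIs were at least 1.5-fold higher in LNCaP_C4-2B, where 13.6% of all 17897 genes were, and 11 were at least 1.5-fold lower, where 45.2% of genes were. The median gene itself had a log2 ratio of -0.49 on this scale. Set against that median gene, 11 members were at least 1.5-fold higher (26.0% of genes) and 7 were at least 1.5-fold lower (26.4% of genes). The median member had a log2 ratio of -0.36, or 0.12 above the median gene. Of the 17 measured members above the median gene, 6 were below 1 by CPM, so their direction depends on the scale. The remaining member, SNHG18, had 1 UMI in each library.

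**Figure D1:**
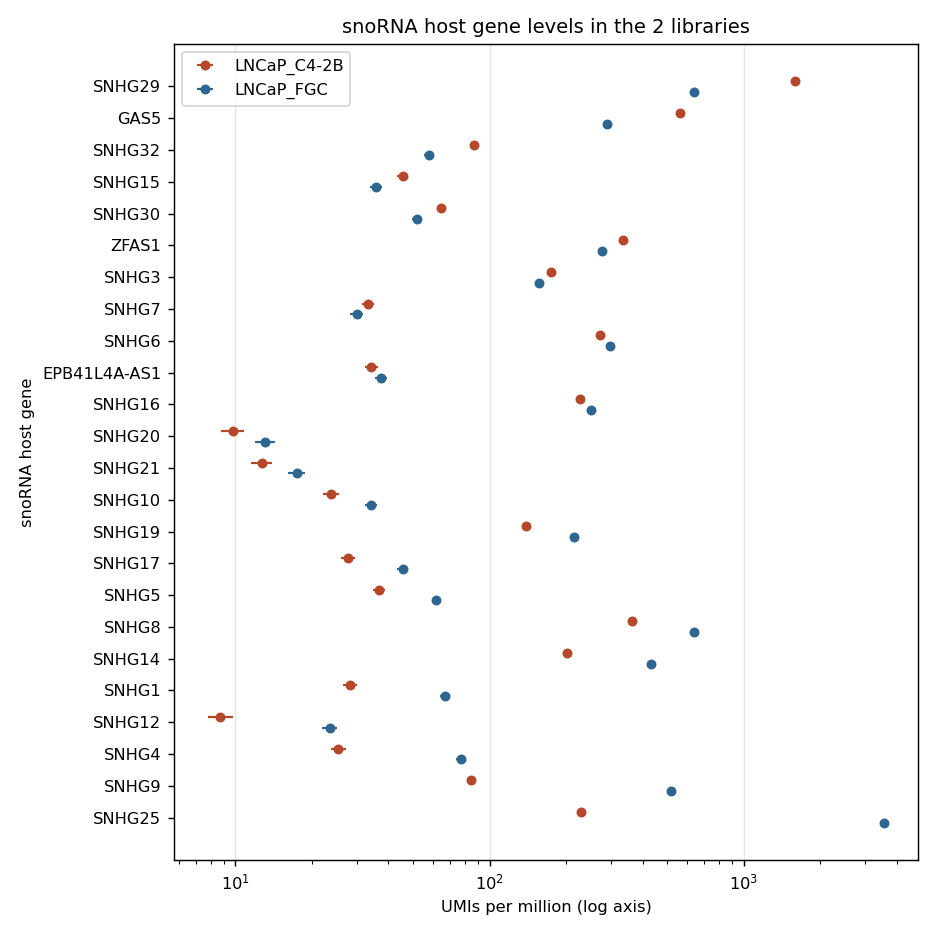
Level of each of the 24 snoRNA host genes with at least 10 CPM in either library, as CPM on a log axis, with LNCaP_C4-2B above LNCaP_FGC in each row. Bars are exact 95% Poisson intervals of the counting error, often smaller than the point, and rows run from the highest ratio of LNCaP_C4-2B over LNCaP_FGC (SNHG29, 2.51) at the top to the lowest (SNHG25, 0.0645) at the bottom.

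By the longest annotated transcript of each gene, the 3 shortest members were SNHG25, SNHG9 and SNHG19, and SNHG25 and SNHG9 differed most among members with at least 10 CPM. SNHG25 stood at 229.9 CPM (8081 UMIs) in LNCaP_C4-2B and at 3565 CPM (125293 UMIs) in LNCaP_FGC, 15.5-fold lower in LNCaP_C4-2B (95% interval 15.2 to 15.9). By level it ranked 559 among all genes in LNCaP_C4-2B and 31 in LNCaP_FGC. SNHG9 stood at 84.4 CPM in LNCaP_C4-2B and 516 CPM in LNCaP_FGC, 6.11-fold lower (5.88 to 6.36). SNHG19 was the nearest to the median gene of the 3, with 139 CPM in LNCaP_C4-2B and 215 CPM in LNCaP_FGC, 1.54-fold lower (1.49 to 1.60). Together these 3 genes gave 9.77% of member UMIs in LNCaP_C4-2B and 54.8% of those in LNCaP_FGC, and the other 27 members summed to 4190 CPM in LNCaP_C4-2B and 3546 CPM in LNCaP_FGC, a ratio of 1.18 (1.17 to 1.19).

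Among the hosts of box C/D snoRNAs, SNHG29 (SNORD49A, SNORD49B and SNORD65) stood at 1597 CPM in LNCaP_C4-2B and 637 CPM in LNCaP_FGC, 2.51-fold higher (2.47 to 2.55). GAS5 was 1.95-fold higher (1.90 to 1.99), at 564 CPM in LNCaP_C4-2B and 289.6 CPM in LNCaP_FGC. SNHG32 (SNORD48 and SNORD52) was 1.502-fold higher (1.42 to 1.59), at 86.7 CPM in LNCaP_C4-2B and 57.7 CPM in LNCaP_FGC. These 3 and the scarce SNHG27, with 102 UMIs in LNCaP_C4-2B and 29 in LNCaP_FGC, were the members past 1.5-fold higher by CPM. In ZFAS1 (SNORD12 and its relatives) the levels were 335 CPM in LNCaP_C4-2B and 278 CPM in LNCaP_FGC, a ratio of 1.21 (1.17 to 1.24). SNHG30 (SNORD7) had 64.6 CPM in LNCaP_C4-2B and 51.9 CPM in LNCaP_FGC, a ratio of 1.24 (1.17 to 1.32). Both lay above the median gene by more than 1.5-fold. SNHG6 (SNORD87), at 273 CPM in LNCaP_C4-2B and 297 CPM in LNCaP_FGC, and SNHG16 (SNORD1A to SNORD1C), at 226 CPM in LNCaP_C4-2B and 251 CPM in LNCaP_FGC, were close in the 2 lines, with ratios of 0.920 (0.895 to 0.946) and 0.900 (0.873 to 0.928).

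Other box C/D hosts were lower in LNCaP_C4-2B. SNHG14 stood at 202 CPM in LNCaP_C4-2B and 430.2 CPM in LNCaP_FGC, 2.13-fold lower (2.07 to 2.19). Its neighbor SNRPN, with which it shares exon sequence, had 269.5 CPM in LNCaP_C4-2B and 237 CPM in LNCaP_FGC. SNHG1 (SNORD25 to SNORD28 among others) was 2.37-fold lower (2.20 to 2.55), at 28.2 CPM in LNCaP_C4-2B and 66.7 CPM in LNCaP_FGC. In SNHG5 (SNORD50B) the levels were 36.8 CPM in LNCaP_C4-2B and 61.7 CPM in LNCaP_FGC, 1.68-fold lower (1.56 to 1.80) but within 1.5-fold of the median gene. The box C/D hosts therefore lay on both sides of the median gene.

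Among the other hosts of box H/ACA snoRNAs, SNHG8 (SNORA24) stood at 362 CPM in LNCaP_C4-2B and 639.8 CPM in LNCaP_FGC, 1.77-fold lower (1.73 to 1.81). SNHG4 (SNORA74A) was 3.02-fold lower (2.80 to 3.27), at 25.4 CPM in LNCaP_C4-2B and 76.9 CPM in LNCaP_FGC. The entry read under the symbol MATR3, whose exons SNHG4 overlaps, had 0.683 CPM in LNCaP_C4-2B and 2.11 CPM in LNCaP_FGC. Any further entry of MATR3 was not read, so this need not be the level of the whole gene. SNHG12 (SNORA44, SNORA61 and SNORD99) was 2.69-fold lower (2.36 to 3.08), at 8.73 CPM in LNCaP_C4-2B and 23.5 CPM in LNCaP_FGC. Relative to the median gene, SNHG4 and SNHG12 were lower by at least 1.5-fold and SNHG8 was not. SNHG17 (SNORA71 family) had 27.8 CPM in LNCaP_C4-2B and 45.6 CPM in LNCaP_FGC, 1.64-fold lower (1.51 to 1.78).

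A few box H/ACA hosts were above the median gene. SNHG3 (SNORA73A and SNORA73B) had 175 CPM in LNCaP_C4-2B and 156 CPM in LNCaP_FGC, a ratio of 1.12 (1.08 to 1.16). SNHG15 (SNORA9) had 45.6 CPM in LNCaP_C4-2B and 35.8 CPM in LNCaP_FGC, a ratio of 1.28 (1.18 to 1.37). SNHG7 (SNORA17A and SNORA17B) had 33.3 CPM in LNCaP_C4-2B and 30.0 CPM in LNCaP_FGC, a ratio of 1.11 (1.02 to 1.21). All 3 were more than 1.5-fold above the median gene although less than 1.5-fold higher by CPM. EPB41L4A-AS1 (SNORA13), at 34.3 CPM in LNCaP_C4-2B and 37.3 CPM in LNCaP_FGC, had a ratio of 0.920 (0.850 to 0.995).

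The 3 scaRNA hosts with at least 10 CPM lay within 0.1 of the median gene on the log2 scale, while the scarce SNHG22 (SCARNA17) had 5 UMIs in LNCaP_C4-2B and 19 in LNCaP_FGC. SNHG10 (SCARNA13) had 23.8 CPM in LNCaP_C4-2B and 34.2 CPM in LNCaP_FGC, a ratio of 0.696 (0.636 to 0.760). SNHG21 (SCARNA15) had 12.7 CPM in LNCaP_C4-2B and 17.4 CPM in LNCaP_FGC, a ratio of 0.730 (0.645 to 0.826). SNHG20 (SCARNA16) had 9.76 CPM in LNCaP_C4-2B and 13.1 CPM in LNCaP_FGC, a ratio of 0.746 (0.646 to 0.859). On the log2 scale these 3 lay -0.04, 0.03 and 0.06 from the median gene. The 6 members under 10 CPM in both libraries (SNHG11, SNHG18, SNHG22, SNHG26, SNHG27 and SNHG31) had between 2 and 594 UMIs over both.

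The proteins that act with the snoRNAs did not share one direction. Of the box C/D core, SNU13 was 1.55-fold higher by CPM in LNCaP_C4-2B (372 CPM, against 239.5 CPM in LNCaP_FGC), FBL (fibrillarin, the methyltransferase) had 272 CPM in LNCaP_C4-2B and 246 CPM in LNCaP_FGC, and NOP56 was 2.16-fold lower (172 CPM in LNCaP_C4-2B, 371 CPM in LNCaP_FGC). Relative to the median gene, 2 of the 4 box C/D core genes were higher and 1 was lower by 1.5-fold. Of the 4 box H/ACA core genes, none was higher and 1 was lower, DKC1 (dyskerin, the pseudouridine synthase), at 129 CPM in LNCaP_C4-2B and 297 CPM in LNCaP_FGC. Among 11 snoRNP assembly factors 4 were higher and 1 was lower, with PIH1D1 3.10-fold higher by CPM (97.2 CPM in LNCaP_C4-2B, 31.4 CPM in LNCaP_FGC) and RPAP3 2.88-fold lower (54.1 CPM in LNCaP_C4-2B, 155.7 CPM in LNCaP_FGC).

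Protein-coding genes that also hold snoRNAs were 5 higher and 5 lower of 23, from PABPC4 (129 CPM in LNCaP_C4-2B, 432 CPM in LNCaP_FGC) to RACK1 (2229.6 CPM in LNCaP_C4-2B, 1358 CPM in LNCaP_FGC). The noncoding host DANCR had 449 CPM in LNCaP_C4-2B and 512 CPM in LNCaP_FGC. Of 14 nonsense-mediated decay factors, none was higher and 3 were lower, with RBM8A of the exon junction complex at 314 CPM in LNCaP_C4-2B and 745 CPM in LNCaP_FGC. By contrast 13 of 21 further 5′ TOP translation genes were higher and none was lower, with a median log2 ratio 0.80 above the median gene, and 46 of 85 ribosomal protein genes were higher and 6 lower, with a median 0.67 above it. All these counts are set against the 26.0% of genes that were higher and 26.4% that were lower.

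The spread between cells was examined after each cell was thinned to 11901 UMIs, which kept 1665 LNCaP_C4-2B and 1623 LNCaP_FGC cells. Most snoRNA host genes varied little more than counting alone would give, and a few abundant ones varied more. The measure is the Fano factor, the variance of UMIs per cell over their mean, which is 1 for random sampling of one fixed level. Its median was 1.12 over 25 members in LNCaP_C4-2B (1.05 over 8221 genes with a mean of at least 0.1 UMI) and 1.16 over 24 members in LNCaP_FGC (1.07 over 9206 genes). A Fano factor of at least 1.5 was found in 3 members in LNCaP_C4-2B (5.18% of genes) and in 6 in LNCaP_FGC (6.47% of genes). Since the Fano factor grows with the mean, the abundant members are the ones able to show it.

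By Fano factor, SNHG25 stood apart in LNCaP_FGC, with a value of 15.02 at a mean of 41.95 UMIs per thinned cell. Every one of the LNCaP_FGC cells held it, from a lowest of 2 UMIs through a median of 36 to a highest of 223, and 10% of the cells lay at or below 17 and 10% at or above 75. The distribution had a single broad peak with a long upper tail, and after removal of counting noise its standard deviation was 57.8% of the mean. By that measure SNHG25 did not stand apart from less abundant members of LNCaP_FGC. SNHG3 had 57.2%, SNHG1 57.3%, SNHG12 59.9% and SNHG21 72.9%, while SNHG9 had 42.8%, GAS5 36.7% and SNHG29 28.4%. Within cell cycle phases the Fano factor of SNHG25 was 14.7. In LNCaP_C4-2B the gene had a median of 2 and a highest of 13 UMIs per thinned cell, a Fano factor of 1.57 and a standard deviation beyond counting of 45.2% of the mean, and 90.1% of cells held it (88.6% to 91.5%). A Poisson draw of the same mean gives 93.8%, and without thinning the share was 96.3%. The cells of the 2 lines overlapped between 2 and 13 UMIs.

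**Figure D2:**
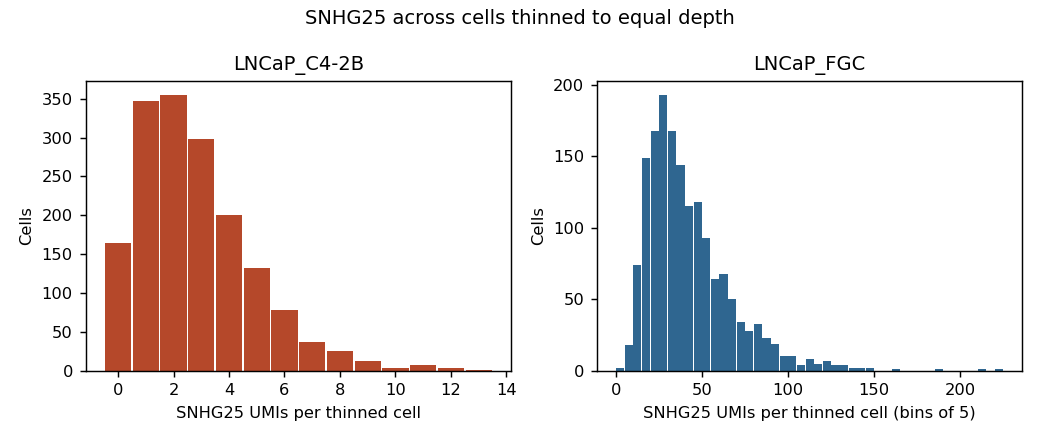
Number of cells (vertical axis) by SNHG25 UMIs per cell after thinning to 11901 UMIs, for 1665 LNCaP_C4-2B cells on the left (bins of 1 UMI) and 1623 LNCaP_FGC cells on the right (bins of 5 UMIs). The horizontal scales differ: the LNCaP_C4-2B cells reach 13 UMIs with a median of 2 and the LNCaP_FGC cells reach 223 with a median of 36.

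The other members with the widest spread were SNHG29, SNHG9, SNHG14, GAS5, SNHG3 and SNHG19. SNHG29 had Fano factors of 1.86 in LNCaP_C4-2B and 1.61 in LNCaP_FGC, at means of 19.0 and 7.53 UMIs per thinned cell, and every thinned LNCaP_C4-2B cell held it. SNHG9 had 1.19 in LNCaP_C4-2B, at a mean of 1.00 UMI, and 2.09 in LNCaP_FGC, at a mean of 5.99 UMIs. SNHG14 had 1.47 in LNCaP_C4-2B and 1.76 in LNCaP_FGC. GAS5 had 1.53 in LNCaP_C4-2B and 1.47 in LNCaP_FGC, and within phases 1.45 and 1.38. SNHG3 had 1.42 in LNCaP_C4-2B and 1.60 in LNCaP_FGC, and SNHG19 had 1.28 and 1.56.

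SNHG6 and ZFAS1 were abundant and lay closer to 1. SNHG6, with 3.27 UMIs per thinned cell in LNCaP_C4-2B and 3.46 in LNCaP_FGC, had Fano factors of 1.04 and 1.17. ZFAS1, with 4.01 UMIs in LNCaP_C4-2B and 3.25 in LNCaP_FGC, had 1.12 and 1.06. At the low end, SNHG20 had 0.999 in LNCaP_C4-2B and 0.984 in LNCaP_FGC, no more than sampling gives. SNHG10 had 0.981 in LNCaP_C4-2B and 1.05 in LNCaP_FGC.

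**Figure D3:**
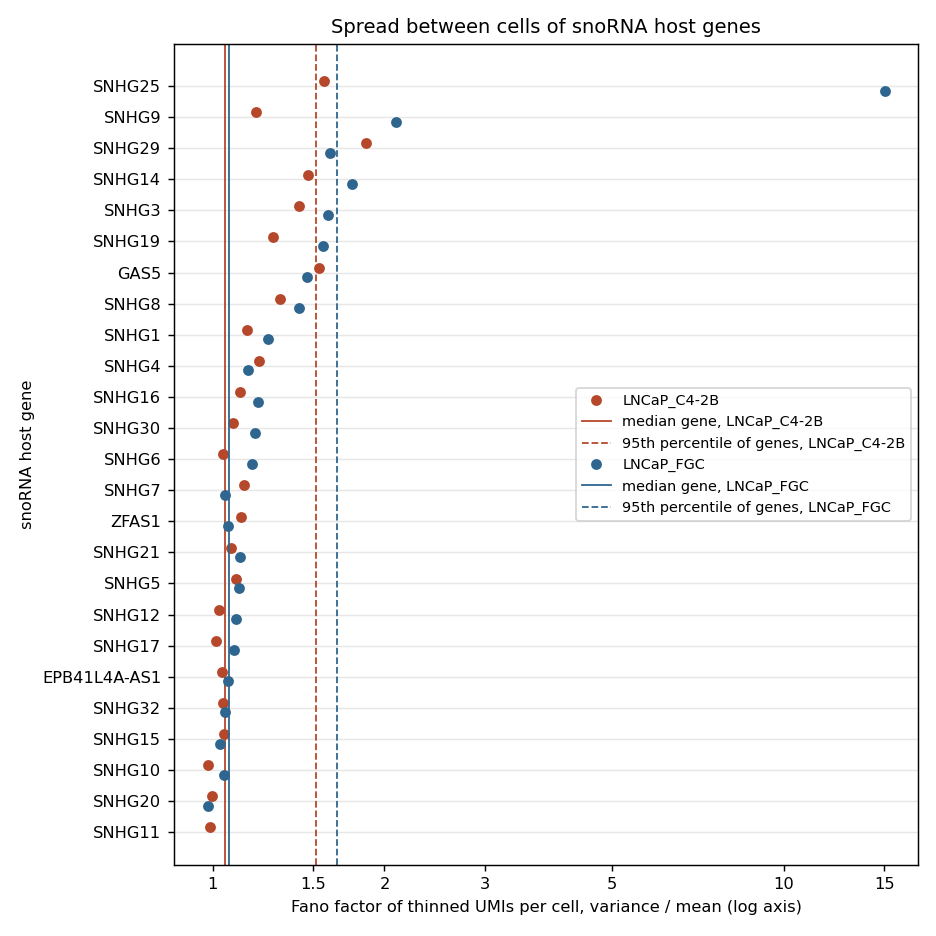
Fano factor (variance over mean of UMIs per cell, log axis) of each snoRNA host gene with a mean of at least 0.1 UMI per thinned cell, with LNCaP_C4-2B above LNCaP_FGC in each row. Solid lines mark the median gene of each library (1.05 and 1.07) and dashed lines the 95th percentile of genes (1.52 and 1.65), and SNHG25 in LNCaP_FGC lies at 15.02.

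Across cells of equal depth, the summed snoRNA host genes varied with the ribosomal protein genes and inversely with the proliferation genes. The summed UMIs of all members had a Pearson r of 0.54 with those of the ribosomal protein genes in LNCaP_C4-2B (1665 cells) and 0.51 in LNCaP_FGC (1623 cells), and without SNHG25 these were 0.53 and 0.48. With the 97 S and G2M genes of the cell cycle scores r was -0.46 in LNCaP_C4-2B and -0.27 in LNCaP_FGC, and with mitochondrial genes 0.03 and -0.01. Single members differed in their r with the summed ribosomal protein genes. SNHG29, with 34.4% of member UMIs in LNCaP_C4-2B, had 0.49 there and 0.51 in LNCaP_FGC. GAS5 had 0.31 and 0.25, SNHG9 had 0.06 and 0.14, and SNHG14 had -0.06 and -0.08. These are descriptions over cells of 1 library that share a fixed total, so a larger share for one class leaves less for the rest.

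Among the genes most like the summed members in LNCaP_C4-2B were RPL3 (r = 0.42), EEF1A1 (0.42), RPS18 (0.41) and RPL26 (0.37), of the ribosome and translation elongation. In LNCaP_FGC they included CSKMT (0.61), RPL35A (0.51), RPS28 (0.50) and RPS27 (0.44). CSKMT (chromosome 11, 62665309 to 62668496), which encodes a mitochondrial methyltransferase, itself holds a snoRNA, SNORA57. Among the 50 genes most like the sum there were 44 ribosomal protein genes in LNCaP_C4-2B and 38 in LNCaP_FGC, of 83 compared in each. The lowest values were those of TUBB (-0.41) and TUBA1B (-0.41), tubulins, in LNCaP_C4-2B and of HSP90AA1 (-0.38), a chaperone, and TUBB (-0.33) in LNCaP_FGC. For the sum without SNHG25, ribosomal protein genes made up 46 of the 50 in LNCaP_C4-2B and 47 in LNCaP_FGC. In LNCaP_FGC, RPL12 (0.41) was then highest instead of CSKMT, and CDK1 (-0.28) was lowest.

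The r values between pairs of members were low. Counting noise keeps r low between members whose Fano factor is close to 1, so these values do not show that members vary independently. Over 66 pairs of the 12 members with at least 1 UMI per thinned cell in LNCaP_C4-2B the median r was 0.04, and over 55 pairs of 11 members in LNCaP_FGC it was 0.05. The highest pair in both libraries was SNHG19 with SNHG25, at 0.21 in LNCaP_C4-2B and 0.42 in LNCaP_FGC, followed in LNCaP_FGC by SNHG9 with SNHG25 (0.34). The lowest pair in LNCaP_FGC was SNHG14 with SNHG9 (-0.21).

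Dependence on the cell cycle was measured by phase. Phases were called in each library, giving 904 G1, 390 S and 556 G2M cells in LNCaP_C4-2B and 804, 463 and 583 in LNCaP_FGC. As a share of UMIs, the summed snoRNA host genes were lower in S and G2M cells than in G1 cells of both lines. The sum was 5069 CPM in G1, 4393 CPM in S and 4257 CPM in G2M in LNCaP_C4-2B, ratios over G1 of 0.867 (0.856 to 0.878) and 0.840 (0.830 to 0.849). In LNCaP_FGC it was 8394, 7576 and 7333 CPM, ratios of 0.902 (0.894 to 0.911) and 0.874 (0.866 to 0.881). Without SNHG25 the ratios were 0.873 (0.862 to 0.884) and 0.849 (0.839 to 0.859) in LNCaP_C4-2B and 0.941 (0.929 to 0.953) and 0.923 (0.912 to 0.934) in LNCaP_FGC. Ribosomal protein genes had ratios of 0.933 in S and 0.893 in G2M in LNCaP_C4-2B and of 0.941 and 0.905 in LNCaP_FGC. The direction rests on this scale in LNCaP_C4-2B and, without SNHG25, in S cells of LNCaP_FGC. Per cell, without scaling, the summed members were 1.101 times the G1 level in S and 1.01 times in G2M in LNCaP_C4-2B. In LNCaP_FGC they were 0.961 and 0.924 times that level. Without SNHG25 the values were 1.11 and 1.02 in LNCaP_C4-2B and 1.002 and 0.976 in LNCaP_FGC. The median UMIs per cell were 15823 in G1, 20875 in S and 18460.5 in G2M in LNCaP_C4-2B and 17532, 19472 and 18740.0 in LNCaP_FGC.

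In LNCaP_C4-2B no measured member of 28 had a log2 ratio at least 0.32 above that of the median gene in S (22.9% of genes were) or in G2M (22.3%), and 11 were at least 0.32 below it in S (23.1%) and 11 in G2M (22.2%). SNHG3, SNHG8, SNHG19, SNHG25, SNHG7, SNHG21 and EPB41L4A-AS1 were below in both. In LNCaP_FGC, of 29 members, 4 were above in S (22.8%) and 3 below (21.9%), and 5 were above in G2M (24.0%) and 7 below (22.9%), shares close to or under those of all genes. The median member had a log2 ratio of -0.21 in S and -0.11 in G2M in LNCaP_C4-2B, and of -0.10 in S and 0.05 in G2M in LNCaP_FGC, so in G2M of LNCaP_FGC the lower sum was not shared by the median member. Several of these calls are those of members with few UMIs, SNHG22, SNHG26 and SNHG27, whose intervals are wide.

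By CPM, GAS5 was among the members with lower levels outside G1. Its level was 629 CPM in G1, 541 CPM in S and 492 CPM in G2M in LNCaP_C4-2B, and 340.1, 258 and 249 CPM in LNCaP_FGC, ratios of G2M over G1 of 0.782 (0.757 to 0.808) and 0.731 (0.698 to 0.766). SNHG3 had a G2M over G1 ratio of 0.620 (0.584 to 0.659) in LNCaP_C4-2B and 0.904 (0.850 to 0.962) in LNCaP_FGC. SNHG25 had 0.684 (0.649 to 0.720) in LNCaP_C4-2B and 0.817 (0.807 to 0.828) in LNCaP_FGC. SNHG14 was lower in G2M than in G1 in both, with 0.803 (0.759 to 0.849) in LNCaP_C4-2B and 0.715 (0.688 to 0.743) in LNCaP_FGC. Per cell, without scaling, GAS5 was 1.09 and SNHG14 1.17 times its G1 level in S cells of LNCaP_C4-2B. In G2M cells of that line GAS5 was 0.944, SNHG14 0.969, SNHG3 0.749 and SNHG25 0.825 times its G1 level. In LNCaP_FGC the per-cell values in S and G2M were 0.809 and 0.773 for GAS5 and 0.883 and 0.756 for SNHG14.

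In LNCaP_FGC a few members were higher outside G1. SNHG1 stood at 50.2 CPM in G1, 75.9 CPM in S and 80.9 CPM in G2M there, ratios of 1.51 (1.36 to 1.68) and 1.61 (1.46 to 1.78). SNHG12 had ratios of 1.38 (1.15 to 1.65) in S and 1.59 (1.35 to 1.87) in G2M. SNHG30 had 1.55 (1.38 to 1.75) and 1.47 (1.31 to 1.64). These 3 were the members at least 0.32 (log2) above the median gene in both phases. In LNCaP_C4-2B the corresponding ratios were 1.06 and 1.05 for SNHG1, 0.983 and 1.11 for SNHG12, and 1.17 and 1.12 for SNHG30. The G2M over G1 intervals of the 2 lines did not overlap for 12 of the 28 members measured in both (10.8% of 14228 genes), among them SNHG1, SNHG30, SNHG3, SNHG25 and SNHG9. Intervals narrow with the count and genes were not matched on level, and with 1 library each the difference between lines was not tested.

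**Figure D4:**
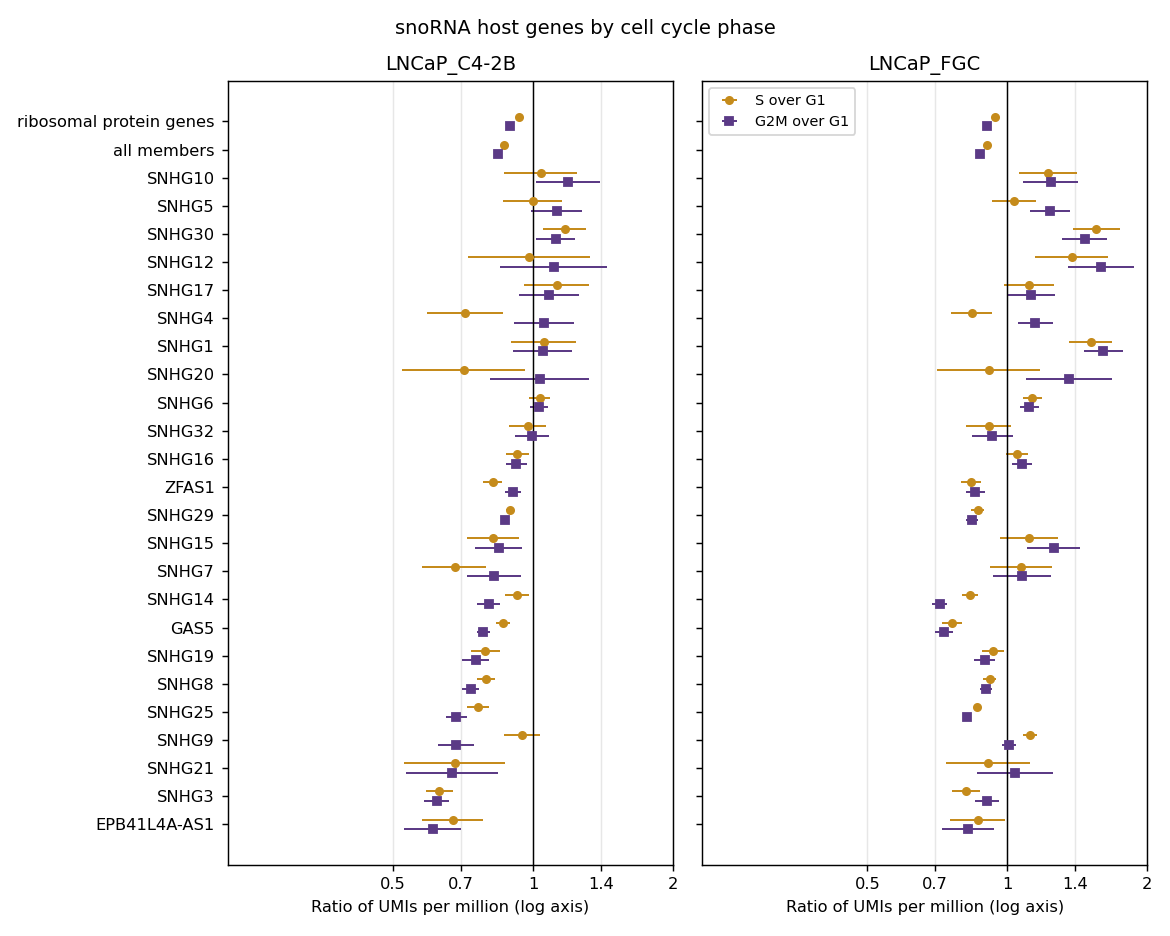
Ratio of CPM in S over G1 (circles) and in G2M over G1 (squares), log axis, for the 24 snoRNA host genes with at least 10 CPM, their sum and the ribosomal protein genes, with LNCaP_C4-2B on the left and LNCaP_FGC on the right. Bars are exact conditional 95% intervals of the counting error, and SNHG1, SNHG12 and SNHG30 lie right of 1.3 in both phases in LNCaP_FGC.

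Ranking the thinned cells by the summed UMIs of the S and G2M genes gave the same contrast in finer steps. From the lowest to the highest quintile of LNCaP_C4-2B cells, the summed members stood at 5373, 4983, 4601, 4329 and 4108 CPM, a ratio of the highest over the lowest of 0.765 (0.749 to 0.780). In LNCaP_FGC they stood at 8555, 8033, 8238, 7462 and 6591 CPM, a ratio of 0.770 (0.758 to 0.783), and without SNHG25 at 4357, 4418, 4480, 4231 and 3769 CPM, so that there the 2 highest quintiles lay below the other 3. The share of ribosomal protein UMIs ran over the quintiles from 30.8% to 25.7% in LNCaP_C4-2B and from 24.3% to 20.3% in LNCaP_FGC, and the median UMIs per cell before thinning from 15693 to 21577 and from 18262 to 20568.5. Their part in the result was not tested.

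In LNCaP_C4-2B 14 of 28 members were at least 0.32 (log2) below the median gene in the highest quintile (28.3% of genes were) and none was above (28.6%). In LNCaP_FGC 10 of 27 were below (27.5%) and 4 above (28.7%). The members below in both lines were 9, GAS5, ZFAS1, EPB41L4A-AS1, SNHG3, SNHG8, SNHG14, SNHG19, SNHG25 and SNHG29. GAS5 was lower at every step in both lines, with 719, 606, 538, 515 and 482 CPM in LNCaP_C4-2B and 376, 326, 276, 245 and 227 CPM in LNCaP_FGC, ratios of 0.670 (0.632 to 0.710) and 0.605 (0.556 to 0.659). EPB41L4A-AS1 had a ratio of 0.441 (0.342 to 0.565) in LNCaP_C4-2B and 0.809 (0.631 to 1.04) in LNCaP_FGC. SNHG3 had 0.532 (0.475 to 0.594) in LNCaP_C4-2B and 0.804 (0.708 to 0.912) in LNCaP_FGC. By CPM, SNHG6 was slightly higher in the highest quintile, with 1.09 (1.002 to 1.19) in LNCaP_C4-2B and 1.17 (1.07 to 1.27) in LNCaP_FGC. Relative to the median gene its log2 ratio was -0.03 in LNCaP_C4-2B and 0.13 in LNCaP_FGC.

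SNHG1 peaked in the fourth quintile of LNCaP_FGC cells. It stood at 35.7, 51.5, 67.7, 94.1 and 73.9 CPM from the lowest to the highest quintile, a ratio of the ends of 2.07 (1.68 to 2.56). SNHG12 had 1.89 (1.36 to 2.63) and SNHG30 had 1.505 (1.201 to 1.89) in LNCaP_FGC. In LNCaP_C4-2B the ratios were 1.01 (0.762 to 1.34) for SNHG1, 0.806 (0.476 to 1.35) for SNHG12 and 1.31 (1.08 to 1.60) for SNHG30. Of these 3 members, SNHG30 alone was above its lowest quintile in both lines beyond counting error.

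**Figure D5:**
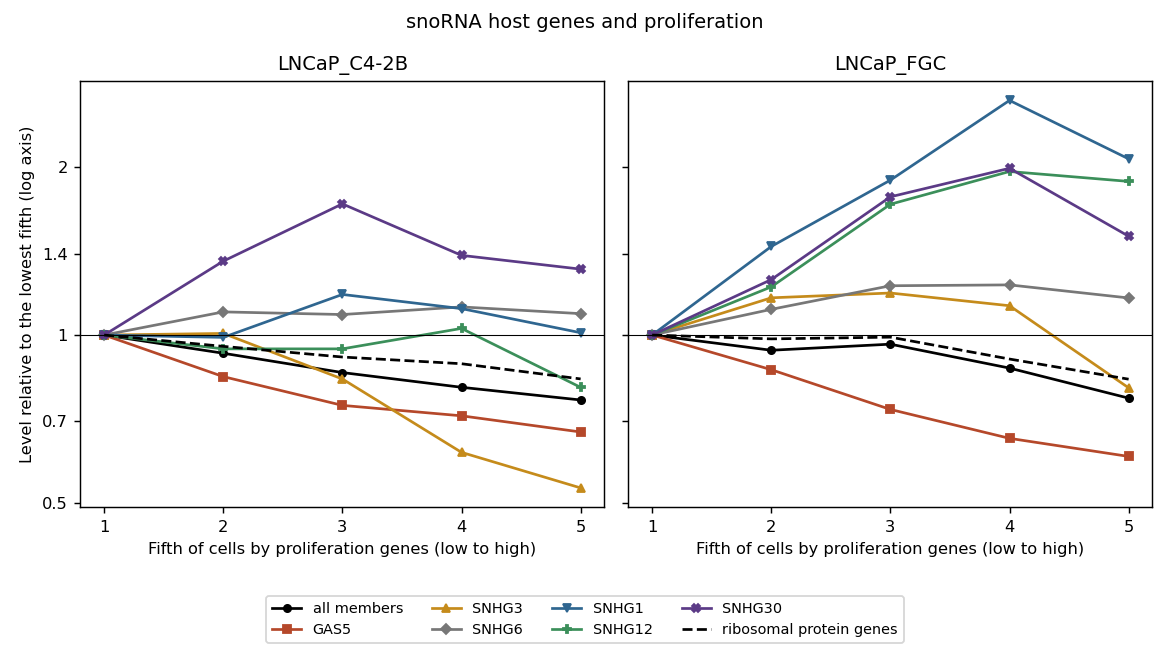
Level relative to the lowest quintile (vertical log axis) over quintiles of cells ranked by the summed UMIs of S and G2M genes, low to high, with LNCaP_C4-2B on the left and LNCaP_FGC on the right. Lines show the sum of all snoRNA host genes, 6 single members and, dashed, the ribosomal protein genes, with the highest quintile at 0.765 and 0.770 of the lowest for the sum and at 2.07 for SNHG1 in LNCaP_FGC.

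LNCaP_FGC cells differ in ETV1, an ETS transcription factor gene rearranged in this line. Cells with 0 ETV1 UMIs at equal depth (622) were set against those with at least 2 (743). SNHG25 stood at 2768 CPM in cells without ETV1 and at 4104 CPM in cells with it, a ratio of 0.675 (0.663 to 0.686). SNHG3 stood at 111 CPM without and 189 CPM with ETV1, a ratio of 0.585 (0.538 to 0.637). SNHG29 (0.844, 0.811 to 0.878), SNHG1 (0.811, 0.714 to 0.920) and EPB41L4A-AS1 (0.789, 0.668 to 0.930) were also lower. In all, 5 of 28 members were at least 0.32 (log2) below the median gene of the contrast (15.6% of genes were), and 2 were above it (18.1% of genes), SNHG27 with 8 UMIs in cells without and 3 in cells with ETV1, and SNHG11 with 66 and 58. GAS5, with a ratio of 0.966 (0.912 to 1.02), SNHG9, with 1.04 (0.994 to 1.09), and SNHG16, with 0.995 (0.934 to 1.06), were nearly level between these cells.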

How the data were processed

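The authors deposited 1 table of UMI counts (whole numbers) for each library. The authors aligned and counted reads with Cell Ranger 6.0 on GRCh38 per the labels, handled cells in Seurat 5.011, removed cells by genes, reads, hemoglobin, ribosomal and mitochondrial share and doublet score, drew equal numbers of cells and downsampled them until the libraries had the same mean, so depth does not reflect RNA content. No further doublet caller was run. Strand handling and the annotation release are not given in the sources used here, so a member and a gene on the opposite strand may share reads.

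UMIs were summed per library or group of cells (Python 3.11.15, numpy 2.4.6, scipy 1.17.1) and compared by ratio, with exact conditional intervals for ratios, exact Poisson intervals for levels and Clopper-Pearson intervals for shares (95%). Members needed at least 10 UMIs in a contrast to be counted. Phases came from CellCycleScoring in Seurat 5.3.0 (R 4.3.3) with 43 S and 54 G2M genes. Thinning used random seed 1. TMM factors came from edgeR 4.0.16. All members with at least 10 CPM in either library are named. Of related lists, up to 2 genes at each end with at least 20 CPM could be named. The scripts were tested on simulated data. The members, lists and contrasts were chosen with earlier results of these data known. One gene among those most like the summed members is not reported here.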

Additional observations from a re-analysis of the deposited data

Results flagged for a closer look

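With 1 library per line, 3 contrasts within each line (S over G1, G2M over G1, and the highest over the lowest proliferation quintile) were searched for members whose counting intervals lay on opposite sides of 1 in the 2 lines. In S over G1 none of 28 members did (0.908% of all genes measured in both lines), in G2M over G1 2 of 28 did (1.38% of genes), and in the quintiles none of 27 did (0.885% of genes). Intervals narrow with the count and genes were not matched on level, and the difference between lines was not tested. SNHG15, the host of SNORA9, had a ratio of 0.844 (0.752 to 0.947) in LNCaP_C4-2B and 1.26 (1.104 to 1.43) in LNCaP_FGC. SNHG16, the host of SNORD1A to SNORD1C, had 0.921 (0.875 to 0.969) in LNCaP_C4-2B and 1.07 (1.02 to 1.13) in LNCaP_FGC.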

How the results depend on the processing

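Relative to the median gene, 7 members rather than 11 were higher in LNCaP_C4-2B with G2M cells only, and at 2-fold 4 were higher and 4 lower. By CPM, 4 were higher and 11 lower at 1.5-fold. The summed log2 ratio of LNCaP_C4-2B over LNCaP_FGC, -0.76, was -0.60 when totals left out mitochondrial and ribosomal protein genes, -0.30 with TMM factors, -0.28 with median-of-ratios factors, -0.73 as a mean of per-cell CPM, -0.73, -0.79 and -0.78 in G1, S and G2M cells, and -0.74 without the upper twentieth of UMIs per cell. Without SNHG25 it was 0.05, and in the same order 0.20, 0.50, 0.52, 0.063, 0.11, -0.0028, -0.0151 and 0.058, so its sign changed in S and in G2M cells. Without thinning, the median Fano factor of members was 1.41 in LNCaP_C4-2B and 1.48 in LNCaP_FGC. With UMIs per cell, the log2 ratios of the summed members over G1 turned to 0.14 in S and 0.0197 in G2M in LNCaP_C4-2B and were -0.058 and -0.11 in LNCaP_FGC. With totals that left those genes out they were -0.26 and -0.34 in LNCaP_C4-2B and -0.19 and -0.26 in LNCaP_FGC, and with both libraries scored together the S value in LNCaP_FGC was -0.13. Ranked by the cell cycle progression list, the summed log2 ratio of the highest over the lowest quintile was -0.35 in LNCaP_C4-2B, with 2 members higher, and -0.34 in LNCaP_FGC, and with 3 groups of cells -0.32 and -0.28. For ETV1, 1 member was higher in cells without it under another seed and in G1 cells, where the summed log2 ratio was -0.29. With at least 100 UMIs the median log2 ratio was -0.26 over members and -0.19 for the other noncoding hosts. No paired analysis was possible because each line has 1 library. Depth limits the 6 members under 10 CPM, and differences between cells within a library are not replicated.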

Other observations

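These values were chosen after the members' levels were seen. In LNCaP_FGC the gene whose UMIs varied most like SNHG25 across 1623 thinned cells was CSKMT (r = 0.62), followed by RPL35A (0.49), RPS28 (0.46) and SNHG19 (0.42), with HSP90AA1 lowest (-0.38). CSKMT, the protein-coding host of SNORA57, resembled SNHG25 between the lines as well, at 60.6 CPM in LNCaP_C4-2B and 448.1 CPM in LNCaP_FGC, 7.40-fold lower. Its annotated transcripts run from 376 to 2870 bases. In LNCaP_C4-2B the genes most like SNHG25 were RPL3 (0.27), EEF1A1 (0.27) and NEAT1 (0.26).

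SNHG14 did not move with the ribosomal protein genes. Its r with their sum was -0.06 in LNCaP_C4-2B and -0.08 in LNCaP_FGC, where SNHG29 had 0.49 and 0.51 and GAS5 had 0.31 and 0.25. The genes most like SNHG14 in LNCaP_FGC were MALAT1 (0.25), MIR99AHG (0.24), MT-ND6 (0.23) and NEAT1 (0.22), of which MALAT1, MIR99AHG and NEAT1 are long noncoding RNAs, and in LNCaP_C4-2B they were MT-ND6 (0.21) and MT-ND5 (0.21). SNHG3 in LNCaP_FGC had ETV1 (0.24) and SNHG25 (0.28) among its 5 most similar genes.

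SNHG25, SNHG9 and SNHG19, the members whose longest annotated transcript is shortest, were all lower by CPM in LNCaP_C4-2B. Among the 8 genes of any kind with a longest transcript under 400 bases and at least 10 CPM in one library, the log2 ratio was -3.95 in SNHG25, -2.76 in MT-ATP8, -2.08 in PRAC1, -1.15 in MIR200CHG, -0.84 in MT-ND4L, -0.23 in RMRP, 0.04 in MT-ND3 and 0.55 in BOLA2. Over genes with at least 100 UMIs in both libraries together, ribosomal protein genes and members left out, the median log2 ratio was -0.56 over 9 genes under 400 bases, 0.02 over 96 genes of 400 to 700 bases, 0.21 over 251 genes of 700 to 1000 bases, 0.05 over 1458 genes of 1000 to 2000 bases, -0.35 over 4061 genes of 2000 to 4000 bases and -0.62 over 5549 genes of at least 4000 bases. The part of transcript length in the member ratios was not tested.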
